A study of Homo sapiens with 30 samples.

Results

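Nascent transcription in A549 cells treated with MS023 for 4 days was compared with that in untreated A549 cells. The groups were taken from the labels, 2 libraries each, so that 4 of the 30 libraries of the series entered the comparison. Its members were all 58780 genes of the count table, of which 22919 passed a filter on low counts and were tested. A549 is an established human lung adenocarcinoma cell line. The assay was precision run-on sequencing (PRO-seq), in which engaged RNA polymerases extend their transcripts in the presence of labelled nucleotides, so that reads report ongoing transcription rather than stored mRNA. MS023 was given at 1 µM in 0.01% DMSO. The untreated cells are labelled as held in 0.01% DMSO for 15 min, and an untreated group of 4 days was not analysed here, so time in culture and MS023 cannot be told apart in this comparison. Cells given MS023 at 1 µM for 2 or 7 days and cells given GSK591 at 1 µM for 4 days are set beside it, the last being matched in time, dose and solvent. No label says that the 2 libraries of a group came from separate cultures. The p-values rest on the spread between libraries of the same group, pooled over all 15 groups of the series, some of them given dexamethasone. That spread may be technical.

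MS023 inhibits Type I protein arginine methyltransferases, the enzymes that place asymmetric dimethylarginine on proteins. PRMT1 makes most of this mark, and PRMT3, CARM1, PRMT6 and PRMT8 are of the same type. GSK591 inhibits PRMT5, the main Type II enzyme, which places symmetric dimethylarginine. Many substrates are RNA-binding proteins with stretches rich in arginine and glycine (RGG motifs), such as the heterogeneous nuclear ribonucleoproteins (hnRNPs), and others are histones and factors of transcription and splicing. In cancer cells Type I inhibition is known for altered splicing, slowed growth and, in several settings, an interferon response.

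The 4 libraries held 10936943 to 13069598 counts, within the 8441211 to 13069598 of the series. Mitochondrially encoded genes took 76.0% and 73.4% of the counts in untreated cells and 64.9% and 66.1% after 4 days of MS023. Levels are CPM, each gene's counts relative to its library's total on the usual CPM scale, with totals adjusted by TMM, which leaves the median log2 fold change of all tested genes at -0.00. Scaling by total counts alone moved that median to 0.74, so directions below are relative to the median gene. In brackets after a gene stand its log2 fold change, the standard error (SE) and, where given, the adjusted p. The 26 airway and alveolar markers summed to 696 and 683 CPM in untreated cells and to 671 and 678 CPM after MS023. The 16 markers of immune, endothelial and mesenchymal cells summed to 11.3 and 13.8 CPM against 17.8 and 13.2 CPM. CD3E and LYZ, which mark T cells and myeloid cells, had 0 counts in all 4 libraries, and 0 of the 7 other-cell markers tested were called higher and 0 lower (median 0.54, 1.28 by total counts, with 2 higher and 0 lower of 6 in the authors' deposited table).

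In edgeR's quasi-likelihood test with Benjamini-Hochberg adjustment, 3247 genes (14.2% of those tested) had an adjusted p below 0.05. Of these 1788 rose (7.8%) and 1459 fell (6.37%) after 4 days of MS023. Wherever list counts against untreated cells are given below, these are the shares of all genes to set beside them. A change of at least 1 on the log2 scale was reached by 769 of the genes that rose and 435 of those that fell, and a change of at least 2 by 210 and 88. The groups did not overlap in CPM for 13519 genes (59%), called or not. Scaled by total counts alone, 11161 genes were called higher and 113 lower. The number of calls was 1936 without MS023 replicate 1, 1648 without MS023 replicate 2, 1475 without untreated replicate 1 and 1931 without untreated replicate 2. DESeq2 called 1869.

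**Figure D1:**
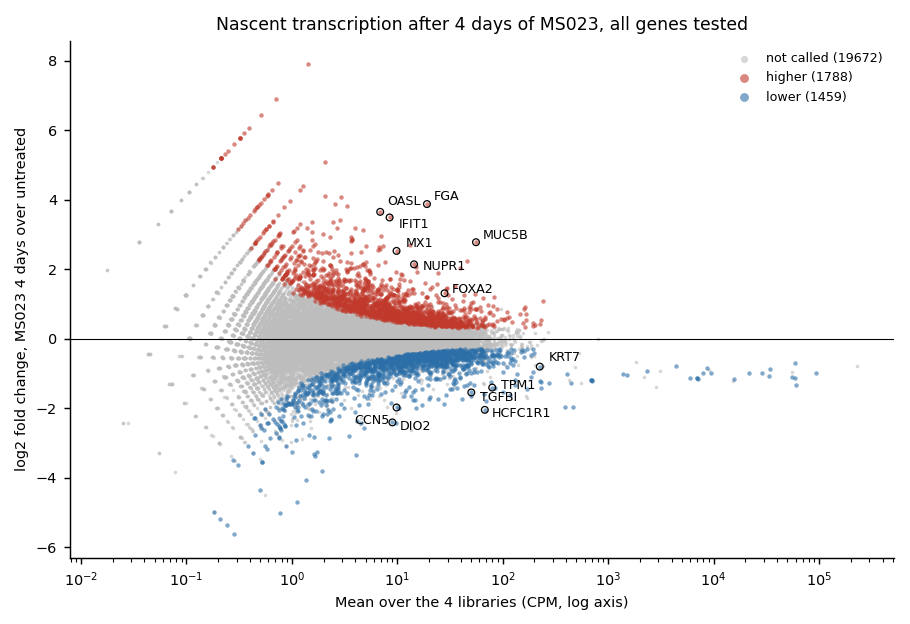
Each point is 1 of the 22919 genes tested, with its mean CPM over the 4 libraries on a log axis and its log2 fold change after 4 days of MS023 against untreated cells (TMM scaling). Red points rose (1788), blue points fell (1459) and grey points were not called. Scaled by total counts alone, the median of all genes would lie at 0.74.

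Of the methyltransferase genes PRMT1, PRMT3, CARM1 and PRMT5, only PRMT1 was called, as lower. PRMT1 (chr19:49675786-49689029 in hg38) went from 56.2 and 55.8 to 43.3 and 44.9 CPM (-0.35, SE 0.11, edgeR adjusted p = 0.021). Both treated libraries lay below both untreated ones, but the call was lost without MS023 replicate 1, MS023 replicate 2, untreated replicate 1 or untreated replicate 2 (edgeR adjusted p from 0.098 to 0.15), DESeq2 gave an adjusted p of 0.066, edgeR with no filter on low counts one of 0.12, and the change was 0.40, not called, when scaled by total counts. In the authors' deposited table PRMT1 was called lower (-0.58). PRMT3 stood at 20.6 and 22.3 against 16.2 and 17.5 CPM (-0.35, SE 0.14), CARM1 at 5.89 and 6.25 against 5.61 and 4.56 CPM (-0.26, SE 0.24) and PRMT5, the target of GSK591, at 7.90 and 8.77 against 8.31 and 6.41 CPM (-0.18, SE 0.19). None of these 3 was called, although PRMT3 was called lower in a fit of these 4 libraries alone (edgeR adjusted p = 0.036). PRMT6 had 2 and 1 counts in untreated cells and 0 and 0 after MS023 and was not tested. PRMT8 had 0 counts in all 4 libraries. BTG1, an antiproliferative protein that binds PRMT1, went from 29.6 and 27.7 to 44.5 and 40.7 CPM (0.57, SE 0.12, edgeR adjusted p = 0.000731), and both treated libraries lay above both untreated ones. Of 15 methyltransferase and cofactor genes tested, BTG1 and PRMT1 were the only ones called (median -0.11, 0.63 by total counts, with 1 higher and 3 lower of 14 in the authors' deposited table and 1 higher and 0 lower by DESeq2). That is 6.67% higher and 6.67% lower, beside 7.8% and 6.37% of all genes.

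Many interferon-stimulated genes rose. Type I and type III interferons signal through JAK kinases to a complex that holds STAT2 and IRF9 and binds the interferon-stimulated response element in the promoters of antiviral genes. Sensors of double-stranded RNA act upstream of the interferons. Of 46 listed interferon-stimulated effectors 38 were tested, and 24 rose and 0 fell. Their median log2 fold change was 1.05 (1.79 by total counts) beside -0.00 (0.74) over all genes. The number that rose was 23 without MS023 replicate 1, 16 without MS023 replicate 2, 16 without untreated replicate 1 and 20 without untreated replicate 2, and 18 by DESeq2. The authors' deposited table called 23 of the 28 effectors with an adjusted p higher and 0 lower, against 10.2% higher and 12.3% lower over all genes of that table.

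Promoters of 6 effectors that rose are shown because each holds the core of that response element (GAAA, any 2 bases, then GAAA), searched on both strands and set in capitals, with overlapping matches joined. They are RefSeq windows of 300 bases in GRCh38.p14, from 250 bases before the start of transcription to 50 after it, written 5′ to 3′ on the strand of the gene. The windows are chr19:17405581-17405880 (minus strand), chr1:27672143-27672442 (minus strand), chr10:89392373-89392672 (plus strand), chr21:41420308-41420607 (plus strand), chr14:94110486-94110785 (plus strand) and chr1:1013247-1013546 (plus strand).
BST2: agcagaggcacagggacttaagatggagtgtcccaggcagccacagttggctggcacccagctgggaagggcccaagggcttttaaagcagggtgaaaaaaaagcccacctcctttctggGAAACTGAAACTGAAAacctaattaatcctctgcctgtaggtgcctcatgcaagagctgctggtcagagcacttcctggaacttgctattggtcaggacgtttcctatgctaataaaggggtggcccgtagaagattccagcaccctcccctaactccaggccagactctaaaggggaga
IFI6: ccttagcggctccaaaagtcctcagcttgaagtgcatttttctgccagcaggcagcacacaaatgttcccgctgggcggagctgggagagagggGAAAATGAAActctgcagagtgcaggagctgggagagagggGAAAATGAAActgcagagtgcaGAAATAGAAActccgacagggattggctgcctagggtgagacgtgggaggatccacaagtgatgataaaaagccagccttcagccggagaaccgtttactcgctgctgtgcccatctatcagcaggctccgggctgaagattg
IFIT1: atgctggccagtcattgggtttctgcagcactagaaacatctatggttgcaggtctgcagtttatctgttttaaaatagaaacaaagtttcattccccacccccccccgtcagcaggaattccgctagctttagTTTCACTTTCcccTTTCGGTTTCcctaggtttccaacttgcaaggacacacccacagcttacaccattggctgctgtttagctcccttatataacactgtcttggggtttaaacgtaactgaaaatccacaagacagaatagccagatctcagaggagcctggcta
MX1: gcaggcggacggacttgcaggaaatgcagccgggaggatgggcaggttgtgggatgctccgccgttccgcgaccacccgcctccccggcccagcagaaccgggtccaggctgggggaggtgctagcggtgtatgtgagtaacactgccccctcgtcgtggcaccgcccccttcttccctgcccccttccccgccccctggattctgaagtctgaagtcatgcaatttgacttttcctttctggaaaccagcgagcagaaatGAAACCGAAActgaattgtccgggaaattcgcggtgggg
IFI27: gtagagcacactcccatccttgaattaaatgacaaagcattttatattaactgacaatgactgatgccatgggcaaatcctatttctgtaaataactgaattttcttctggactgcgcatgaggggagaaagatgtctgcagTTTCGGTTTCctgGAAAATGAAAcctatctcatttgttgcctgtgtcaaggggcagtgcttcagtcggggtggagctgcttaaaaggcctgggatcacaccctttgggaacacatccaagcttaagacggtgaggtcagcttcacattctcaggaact
ISG15: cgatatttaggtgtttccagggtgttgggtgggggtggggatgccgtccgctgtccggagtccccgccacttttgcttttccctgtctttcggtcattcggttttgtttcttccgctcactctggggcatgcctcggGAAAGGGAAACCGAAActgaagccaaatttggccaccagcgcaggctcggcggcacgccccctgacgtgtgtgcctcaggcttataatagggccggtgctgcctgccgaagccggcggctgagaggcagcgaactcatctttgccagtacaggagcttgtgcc
Relative to the first transcribed base, matches lay at -130 and -124 in BST2, between -156 and -93 in IFI6 (3 matches), at -116 and -103 in IFIT1, at 12 in MX1, at -108 and -95 in IFI27 and at -113 and -107 in ISG15. Of the effectors with a window in the table, 20 of 30 (66.7%) held the core, as did 15 of the 20 that rose. The share was 2.88% of 13189 tested genes and 3.57% of all 35116 windows. Among all genes with a window that rose, 44 of 1166 (3.77%) held the core. The high share is therefore one of this list, which is made of known interferon-stimulated genes, and not of the genes that rose as a whole.

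IFIT1, which binds viral RNA, went from 1.33 and 1.41 to 13.6 and 17.4 CPM (3.49, SE 0.28, edgeR adjusted p = 2.28e-13). MX1, a dynamin-like antiviral GTPase, went from 2.67 and 3.12 to 15.5 and 18.1 CPM (2.53, SE 0.24, edgeR adjusted p = 4.75e-11). IFI6 went from 0.334 and 0.302 to 4.55 and 6.55 CPM (4.08, SE 0.57, edgeR adjusted p = 4.71e-07). In these 3 genes the lower treated library lay several-fold above the higher untreated one. IFIT2 (2.15, SE 0.29), PARP9 (1.99, SE 0.27), HERC6 (2.10, SE 0.33), the ubiquitin-like modifier ISG15 (1.66, SE 0.28) and IFI27 (1.68, SE 0.30) rose too. BST2 (tetherin), which holds budding virus at the cell surface, had 0 and 1 counts in untreated cells and 18 and 22 after MS023. The treated over untreated ratio was 26.9, with a 95% counting interval of 4.56 to 1089. USP18, a protease that limits interferon signalling, stood at 3.67 and 2.52 against 3.20 and 2.92 CPM (-0.01, SE 0.31) and was not called. CXCL10, an interferon-induced chemokine, had 0 counts in all 4 libraries.

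**Figure D2:**
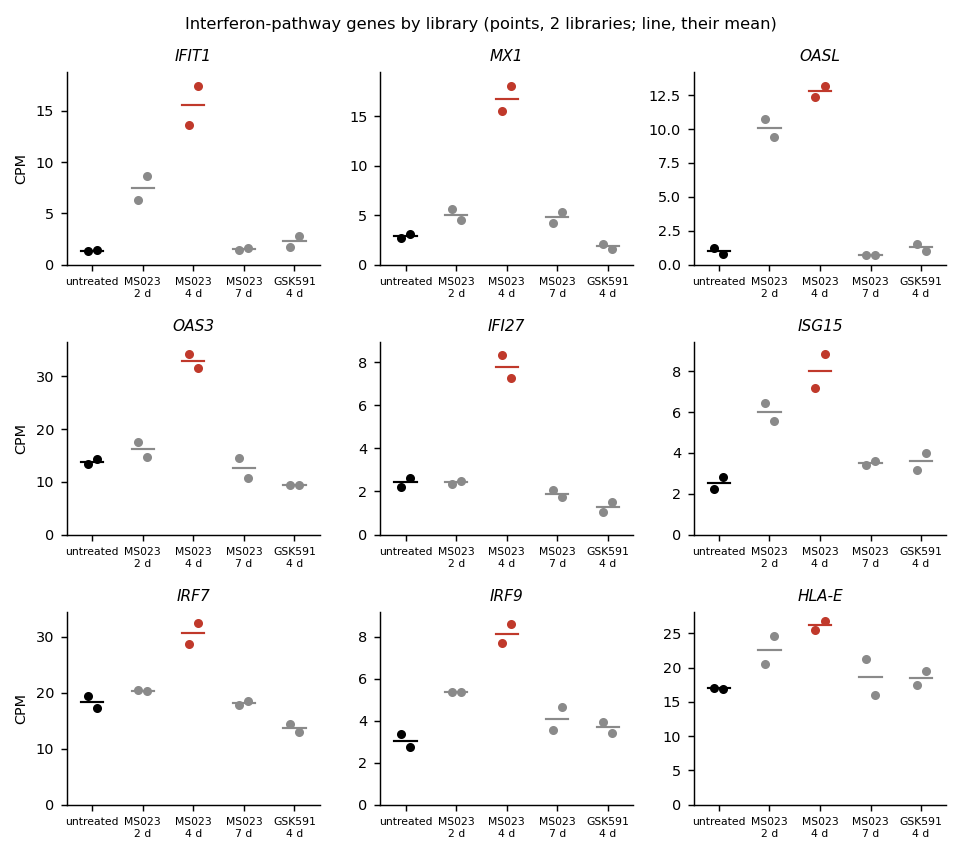
CPM (linear axes from 0, TMM scaling) of 9 interferon-pathway genes in untreated cells, after MS023 for 2, 4 and 7 days and after GSK591 for 4 days. Points are the 2 libraries of a group and lines their mean. Both 4-day MS023 libraries lie above both untreated libraries in all 9 panels.

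Of 19 double-stranded RNA sensors and adaptors tested, 8 rose and 0 fell (median 0.36, 1.11 by total counts, with 8 higher and 0 lower of 14 in the authors' deposited table). The number that rose was 6 without MS023 replicate 1, 6 without MS023 replicate 2, 5 without untreated replicate 1 and 6 without untreated replicate 2. OAS1, OAS2 and OAS3 make a second messenger of antiviral defence, and OASL is a related protein without that activity. OASL went from 1.22 and 0.806 to 12.4 and 13.2 CPM (3.65, SE 0.33, edgeR adjusted p = 1.03e-11) and OAS3 from 13.3 and 14.3 to 34.3 and 31.7 CPM (1.25, SE 0.14, edgeR adjusted p = 2.87e-09). OAS1 (1.40, SE 0.24) and OAS2 (3.36, SE 0.74, from 0.890 and 0 CPM in untreated cells) rose as well, each with both treated libraries above both untreated ones. IFIH1, which encodes the sensor MDA5, went from 1.56 and 1.91 to 4.48 and 5.06 CPM (1.45, SE 0.35, edgeR adjusted p = 0.00256), a call lost without untreated replicate 1 (edgeR adjusted p = 0.058). The sensor RIGI stood at 2.89 and 4.63 against 4.62 and 4.63 CPM (0.29, SE 0.27), the adaptor MAVS at 58.3 and 54.4 against 50.9 and 54.4 CPM (-0.10, SE 0.11), the kinase EIF2AK2 (PKR) at 17.6 and 14.5 against 17.5 and 19.5 CPM (0.21, SE 0.30) and the RNA editor ADAR at 22.4 and 25.9 against 29.8 and 29.6 CPM (0.30, SE 0.17). None of these 4 was called, but EIF2AK2 and ADAR were called higher in a fit that adjusts for the processed-pseudogene share (edgeR adjusted p = 0.0297 and 0.00703). RIGI, MAVS, EIF2AK2 and ADAR were called higher when scaled by total counts (1.02, 0.65, 0.96 and 1.04). EIF2AK2 was called higher in the authors' deposited table too (0.61).

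Interferon genes themselves were near the limit of detection. IFNB1 and IFNA2 had 0 counts in all 4 libraries, and IFNL1 had 0 and 2 counts in untreated cells against 6 and 2 after MS023. A change in these ligands was not detectable at this depth. Of 14 ligand, receptor and JAK genes tested, 2 rose (14.3%) and 0 fell, beside 7.8% and 6.37% of all genes (median 0.08, 0.82 by total counts, with 1 higher and 0 lower of 9 in the authors' deposited table and 1 higher and 0 lower by DESeq2). IFNE, an epithelial interferon, went from 0.222 and 0.403 to 1.42 and 1.28 CPM (2.05, SE 0.57, edgeR adjusted p = 0.00984), a call lost without MS023 replicate 1 or untreated replicate 1 (edgeR adjusted p from 0.055 to 0.14) and by DESeq2 (adjusted p = 0.056). SOCS1, which inhibits JAK kinases, went from 35.9 and 29.9 to 49.5 and 52.1 CPM (0.63, SE 0.19, edgeR adjusted p = 0.033), a call lost without MS023 replicate 1, MS023 replicate 2, untreated replicate 1 or untreated replicate 2 (edgeR adjusted p from 0.078 to 0.24). The receptor chain IFNAR1 stood at 12.8 and 10.8 against 11.4 and 11.4 CPM (-0.04, SE 0.18) and was not called. IFNAR1 was called higher when scaled by total counts (0.71).

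Among 13 STAT and IRF factors 2 rose (15.4%) and 0 fell, beside 7.8% and 6.37% of all genes (median 0.13, 0.87 by total counts, with 5 higher and 2 lower of 12 in the authors' deposited table). IRF9 went from 3.34 and 2.72 to 7.67 and 8.62 CPM (1.43, SE 0.25, edgeR adjusted p = 4.51e-05). IRF7, which amplifies transcription of interferon genes, went from 19.5 and 17.3 to 28.8 and 32.5 CPM (0.74, SE 0.13, edgeR adjusted p = 4.42e-05), and the authors' deposited table gives it a log2 fold change of 3.09. STAT2 stood at 5.45 and 5.94 against 7.75 and 7.26 CPM (0.39, SE 0.21) and was not called. Among 21 genes of MHC class I presentation 4 rose and 0 fell (median 0.16, 0.91 by total counts, with 2 higher and 0 lower of 20 in the authors' deposited table and 2 higher and 0 lower by DESeq2), and the number that rose was 3 without MS023 replicate 1, 1 without MS023 replicate 2, 2 without untreated replicate 1 and 3 without untreated replicate 2. The share of MHC class I genes that rose was 19.0%, beside 7.8% of all genes. HLA-E, which presents peptides to natural killer cell receptors, went from 17.0 and 16.9 to 25.5 and 26.8 CPM (0.62, SE 0.14, edgeR adjusted p = 0.00128). B2M, the light chain of MHC class I, stood at 9.90 and 8.56 against 10.5 and 9.97 CPM (0.15, SE 0.18) and was not called. STAT2 and B2M were called higher when scaled by total counts (1.14 and 0.90). STAT2 was called higher in the authors' deposited table too (0.44).

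Genes of DNA replication and the G1/S transition fell in part. Of 48 tested 0 rose and 19 fell, with a median of -0.52 that became 0.24 when scaled by total counts, where the median of all genes was 0.74. The number that fell was 14 without MS023 replicate 1, 11 without MS023 replicate 2, 11 without untreated replicate 1 and 14 without untreated replicate 2. The authors' deposited table called 27 of 42 lower and 0 higher. RRM2, the regulated subunit of ribonucleotide reductase, went from 52.7 and 56.6 to 29.0 and 30.4 CPM (-0.88, SE 0.11, edgeR adjusted p = 5.75e-08). POLE, the catalytic subunit of DNA polymerase epsilon, went from 37.6 and 36.6 to 21.5 and 20.9 CPM (-0.81, SE 0.13, edgeR adjusted p = 5.48e-06). The treated and untreated libraries of both genes were well apart. The helicase subunits MCM4 (-0.62, SE 0.12) and MCM7 (-0.56, SE 0.11), and the chromatin assembly factor subunit CHAF1A (-0.77, SE 0.16), fell too. E2F1, which drives transcription of this group, went from 13.2 and 17.4 to 9.17 and 8.40 CPM (-0.81, SE 0.18, edgeR adjusted p = 0.00103), a call lost without untreated replicate 2 (edgeR adjusted p = 0.097). PCNA, the sliding clamp, stood at 30.4 and 36.2 against 28.2 and 26.0 CPM (-0.30, SE 0.14). It was not called, except as lower in a fit of these 4 libraries alone (edgeR adjusted p = 0.044). PCNA was called lower in the authors' deposited table (-0.46). RRM2, POLE, MCM4, MCM7, CHAF1A and E2F1 lost their calls when scaled by total counts (log2 fold changes of -0.14, -0.06, 0.12, 0.18, -0.03 and -0.07).

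Of 48 mitosis and G2/M genes 1 rose and 11 fell (median -0.52, 0.22 by total counts, with 0 higher and 17 lower of 41 in the authors' deposited table), and the number that fell was 7 without MS023 replicate 1, 8 without MS023 replicate 2, 7 without untreated replicate 1 and 7 without untreated replicate 2. CCNB2, a mitotic cyclin, went from 26.9 and 28.0 to 13.4 and 13.3 CPM (-1.04, SE 0.14, edgeR adjusted p = 5.25e-07). AURKB, the kinase of the chromosomal passenger complex, went from 34.0 and 37.8 to 23.4 and 21.6 CPM (-0.67, SE 0.12, edgeR adjusted p = 7.02e-05), and its partner BIRC5 (survivin) fell as well (-0.70, SE 0.13). ESPL1, the protease separase (-0.73, SE 0.13), CDC20, which activates the anaphase-promoting complex (-0.67, SE 0.13), and CDK1 (-0.97, SE 0.26) also fell, the CDK1 call being lost without MS023 replicate 2 or untreated replicate 1 (edgeR adjusted p from 0.097 to 0.25). CENPA, the centromeric histone H3 variant, was the exception and went from 22.7 and 23.3 to 33.8 and 37.5 CPM (0.63, SE 0.14, edgeR adjusted p = 0.00101). CCNB1, the other B-type cyclin of the list, stood at 12.3 and 15.4 against 10.4 and 11.4 CPM (-0.35, SE 0.18) and was not called. CCNB2, AURKB, BIRC5, ESPL1, CDC20 and CDK1 lost their calls when scaled by total counts (log2 fold changes of -0.29, 0.07, 0.05, 0.01, 0.07 and -0.21).

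Promoters of CDK1, POLE and E2F1 are shown because they hold an E2F motif, TTTGGCGC or TTTCGCGC on either strand, in capitals. The windows are of the same kind as above, at chr10:60778081-60778380 (plus strand), chr12:132687293-132687592 (minus strand) and chr20:33686336-33686635 (minus strand).
CDK1: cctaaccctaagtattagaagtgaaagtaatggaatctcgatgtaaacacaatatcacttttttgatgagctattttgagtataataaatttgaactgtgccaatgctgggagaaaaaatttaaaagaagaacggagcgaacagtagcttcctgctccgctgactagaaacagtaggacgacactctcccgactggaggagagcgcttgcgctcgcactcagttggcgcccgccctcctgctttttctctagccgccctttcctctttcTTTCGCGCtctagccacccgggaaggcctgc
POLE: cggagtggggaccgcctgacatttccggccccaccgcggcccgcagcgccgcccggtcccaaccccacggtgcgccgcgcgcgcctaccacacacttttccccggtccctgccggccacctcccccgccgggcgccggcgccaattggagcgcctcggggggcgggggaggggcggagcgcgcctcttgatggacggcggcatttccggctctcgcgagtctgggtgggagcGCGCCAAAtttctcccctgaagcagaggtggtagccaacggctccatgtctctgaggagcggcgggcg
E2F1: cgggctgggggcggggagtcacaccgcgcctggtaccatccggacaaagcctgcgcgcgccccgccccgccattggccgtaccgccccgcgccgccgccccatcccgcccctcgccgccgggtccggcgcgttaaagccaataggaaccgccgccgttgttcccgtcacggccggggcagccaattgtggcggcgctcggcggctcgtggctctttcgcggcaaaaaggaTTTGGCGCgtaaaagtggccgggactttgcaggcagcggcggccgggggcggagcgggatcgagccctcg
Relative to the first transcribed base the match lay at 20 in CDK1, at -18 in POLE and at -20 in E2F1. Of the replication genes with a window 13 of 39 (33.3%) held an E2F motif, as did 5 of the 15 that fell, against 1.81% of tested genes. Of the mitosis genes, CDK1 among them, 3 of 41 (7.32%) held an E2F motif, as did 1 of the 10 that fell. Among all genes with a window that fell, 23 of 949 (2.42%) held it. TTTGAA, the core of the cell-cycle homology region, was found in 27 of 41 mitosis genes (65.9%) and in 10.0% of tested genes. It was found in 10.3% of all genes with a window that fell. Both motifs thus go with the lists and were about as frequent in fallen genes as a whole as in tested genes. A match describes letters in the window and is not a measured binding site.

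Among 12 CDK inhibitor, cyclin D and related genes 2 rose and 2 fell, beside 7.8% and 6.37% of all genes (median 0.05, 0.79 by total counts, with 4 higher and 4 lower of 11 in the authors' deposited table and 1 higher and 0 lower by DESeq2). The number that rose was 2 without MS023 replicate 1, 1 without MS023 replicate 2, 1 without untreated replicate 1 and 2 without untreated replicate 2, and the number that fell 0 without MS023 replicate 1, 0 without MS023 replicate 2, 2 without untreated replicate 1 and 0 without untreated replicate 2. CDKN1C, the inhibitor p57, went from 3.11 and 0.907 to 11.2 and 12.2 CPM (2.57, SE 0.34, edgeR adjusted p = 1.13e-05). CDKN1A, the inhibitor p21, stood at 10.3 and 11.1 against 11.3 and 14.0 CPM (0.24, SE 0.16) and was not called. Of 26 p53 targets 3 rose (11.5%) and 0 fell, beside the same shares of all genes (median 0.11, 0.86 by total counts, with 6 higher and 2 lower of 22 in the authors' deposited table). GDF15, a stress-induced cytokine, went from 45.5 and 52.5 to 92.0 and 99.5 CPM (0.97, SE 0.12, edgeR adjusted p = 1.29e-08), BTG2 rose (0.74, SE 0.17), and SESN2, a sestrin, rose (0.70, SE 0.15), a call lost without untreated replicate 1 (edgeR adjusted p = 0.077). MDM2, which degrades p53, stood at 43.5 and 42.3 against 47.0 and 55.0 CPM (0.25, SE 0.11) and was not called. CDKN1A and MDM2 were called higher when scaled by total counts (0.97 and 0.99). CDKN1A was called higher in the authors' deposited table too (0.34).

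Genes for RGG-motif RNA-binding proteins had a median below that of all genes under both scalings. All 38 were tested, 0 rose and 22 fell, and all 38 had a log2 fold change below 0. The median was -0.59, but 0.16 (0.74 for all genes) with 4 called higher and 0 lower when scaled by total counts. The number that fell was 10 without MS023 replicate 1, 17 without MS023 replicate 2, 12 without untreated replicate 1 and 19 without untreated replicate 2. The authors' deposited table called 26 of 32 lower and 0 higher. HNRNPA1 (chr12:54280193-54287088), a splicing repressor methylated by PRMT1, went from 94.2 and 92.0 to 52.9 and 54.2 CPM (-0.80, SE 0.10, edgeR adjusted p = 1.50e-08). RBM3, a cold-inducible protein, went from 51.5 and 47.7 to 27.6 and 30.5 CPM (-0.77, SE 0.12, edgeR adjusted p = 3.20e-06). In both the treated libraries lay below the untreated ones. HNRNPH1 (-0.63, SE 0.11) and HNRNPF (-0.56, SE 0.11) fell as well. HNRNPA1, RBM3, HNRNPH1 and HNRNPF lost their calls when scaled by total counts (log2 fold changes of -0.05, -0.02, 0.12 and 0.18).

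Many of these genes have processed pseudogenes of nearly the same sequence, and reads of parent and copy may not be told apart. The pseudogene HNRNPA3P5 went from 18.1 and 14.8 to 2.56 and 3.49 CPM (-2.44, SE 0.47, edgeR adjusted p = 0.00218). Processed pseudogenes as a whole held 1.31% and 1.23% of nuclear counts in untreated cells and 1.22% and 1.22% after MS023, with nuclear copies of mitochondrial genes left out. The processed-pseudogene share used as a covariate differs from these values in that such copies were left in. With that covariate 26 of the 38 RGG-motif genes were called lower. Of 81 cytosolic ribosomal protein genes, which have many such copies, 0 rose and 32 fell (median -0.31, 0.43 by total counts, with 1 higher and 37 lower of 73 in the authors' deposited table), and the number that fell was 14 without MS023 replicate 1, 18 without MS023 replicate 2, 20 without untreated replicate 1 and 12 without untreated replicate 2. RPL13A (-0.67, SE 0.10) and RPS14 (-0.49, SE 0.10) had the smallest p of these. RPL13A and RPS14 lost their calls when scaled by total counts (log2 fold changes of 0.07 and 0.25).

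Some genes of other lists of RNA synthesis and processing fell. The shares that fell were 29.6% of snRNP, 21.1% of SR, 19.2% of elongation and 32.1% of MYC network genes, beside 6.37% of all genes. Of 27 spliceosomal snRNP genes 0 rose and 8 fell (median -0.29, 0.46 by total counts, with 0 higher and 8 lower of 24 in the authors' deposited table and 0 higher and 4 lower by DESeq2), and the number that fell was 5 without MS023 replicate 1, 1 without MS023 replicate 2, 4 without untreated replicate 1 and 4 without untreated replicate 2. SNRPB, an Sm protein that PRMT5 methylates, stood at 17.8 and 19.4 against 16.1 and 18.5 CPM (-0.11, SE 0.14) and was not called. SNRPB was called lower in the authors' deposited table (-0.50). Of 19 SR splicing factor genes 0 rose and 4 fell (median -0.27, 0.48 by total counts, with 0 higher and 5 lower of 15 in the authors' deposited table and 0 higher and 1 lower by DESeq2), with 1 without MS023 replicate 1, 0 without MS023 replicate 2, 0 without untreated replicate 1 and 1 without untreated replicate 2. Of 26 pausing and elongation genes 0 rose and 5 fell (median -0.25, 0.50 by total counts, with 1 higher and 7 lower of 24 in the authors' deposited table and 0 higher and 2 lower by DESeq2), with 1 without MS023 replicate 1, 0 without MS023 replicate 2, 0 without untreated replicate 1 and 1 without untreated replicate 2. Of 28 genes of the MYC network and ribosome biogenesis 0 rose and 9 fell (median -0.37, 0.36 by total counts, with 1 higher and 14 lower of 27 in the authors' deposited table), with 2 without MS023 replicate 1, 2 without MS023 replicate 2, 2 without untreated replicate 1 and 4 without untreated replicate 2. MNT, a MAX partner that opposes MYC, went from 49.8 and 48.4 to 21.2 and 23.1 CPM (-1.15, SE 0.12, edgeR adjusted p = 1.22e-09), whereas MYC stood at 93.3 and 88.8 against 89.2 and 95.6 CPM (0.02, SE 0.11) and was not called. MNT lost its call when scaled by total counts (log2 fold change of -0.40). SNRPB and MYC were called higher with that scaling (0.63 and 0.77).

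**Figure D3:**
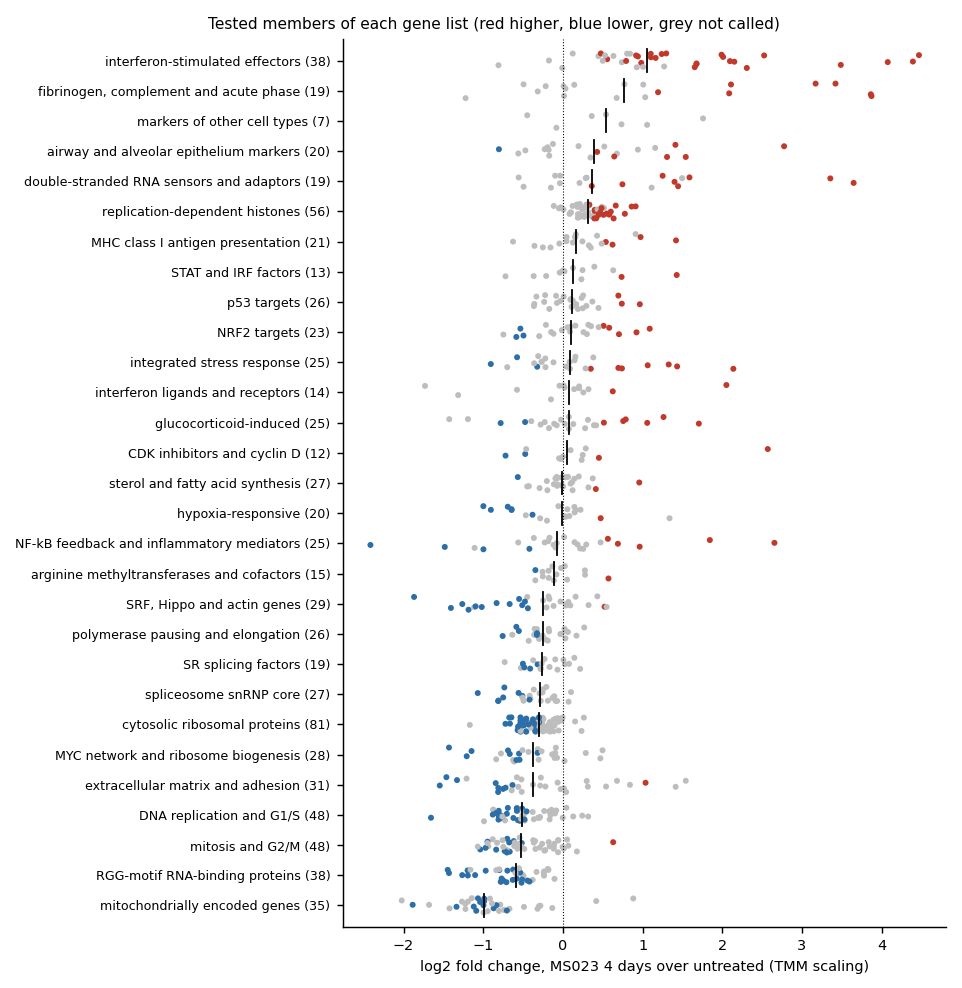
Log2 fold change (TMM scaling) of each tested member of 29 gene lists after 4 days of MS023 against untreated cells. Red members rose, blue members fell, grey members were not called, and the black bar is the median of the list. Interferon-stimulated effectors have a median of 1.05 and RGG-motif genes one of -0.59, which are 1.79 and 0.16 when scaled by total counts, where that of all genes is 0.74.

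Several genes of the actin cytoskeleton fell. Of 29 SRF, Hippo and actin genes 1 rose and 12 fell (median -0.25, 0.50 by total counts, with 1 higher and 13 lower of 25 in the authors' deposited table and 0 higher and 12 lower by DESeq2), and the number that fell was 9 without MS023 replicate 1, 10 without MS023 replicate 2, 9 without untreated replicate 1 and 10 without untreated replicate 2, and the number that rose 1 without MS023 replicate 1, 0 without MS023 replicate 2, 0 without untreated replicate 1 and 0 without untreated replicate 2. TPM1 (chr15:63042632-63071915), a tropomyosin that lines actin filaments, went from 123 and 108 to 42.9 and 44.2 CPM (-1.41, SE 0.12, edgeR adjusted p = 4.03e-12). The treated libraries lie close together and far below the untreated ones. TPM2 (-1.10, SE 0.16), TPM4 (-0.83, SE 0.16), TAGLN2 (-1.02, SE 0.12) and the actin crosslinker ACTN4 (-0.67, SE 0.13) fell as well. ACTB, beta-actin, stood at 127 and 128 against 112 and 114 CPM (-0.17, SE 0.11) and the Hippo target CCN2 at 7.56 and 11.4 against 9.59 and 9.97 CPM (0.04, SE 0.16), and neither was called. TPM2, TPM4, TAGLN2 and ACTN4 lost their calls when scaled by total counts (log2 fold changes of -0.34, -0.08, -0.27 and 0.08). ACTB and CCN2 were called higher with that scaling (0.57 and 0.77).

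Of 31 extracellular matrix and adhesion genes 1 rose and 9 fell (median -0.38, 0.37 by total counts, with 2 higher and 14 lower of 26 in the authors' deposited table), and the number that fell was 9 without MS023 replicate 1, 8 without MS023 replicate 2, 8 without untreated replicate 1 and 8 without untreated replicate 2, and the number that rose 0 without MS023 replicate 1, 1 without MS023 replicate 2, 0 without untreated replicate 1 and 1 without untreated replicate 2. TGFBI, a matrix protein induced by TGF-beta, went from 81.1 and 69.0 to 26.9 and 24.5 CPM (-1.55, SE 0.16, edgeR adjusted p = 8.43e-08). ITGA3, an integrin that binds laminins, went from 144 and 134 to 77.8 and 80.4 CPM (-0.81, SE 0.10, edgeR adjusted p = 1.28e-08) and VIM, vimentin, from 54.3 and 59.7 to 32.7 and 35.1 CPM (-0.75, SE 0.13, edgeR adjusted p = 1.97e-05). The groups were apart in all 3 genes. LOXL2, which crosslinks collagen (-1.33, SE 0.20), COL5A1 (-0.81, SE 0.14) and LAMA3 (-0.72, SE 0.13) fell too. FN1, fibronectin, stood at 78.3 and 60.5 against 122 and 126 CPM (0.84, SE 0.30) and was not called, but it was called higher in a fit of these 4 libraries alone (edgeR adjusted p = 1.71e-06) and in a fit that adjusts for the processed-pseudogene share (0.000169). ITGA3, VIM, COL5A1 and LAMA3 lost their calls when scaled by total counts (log2 fold changes of -0.06, -0.01, -0.07 and 0.02). FN1 was called higher with that scaling (1.60) and in the authors' deposited table (1.01).

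Several genes of secreted plasma proteins and airway cells rose. Of the acute phase list 36.8% rose and 0% fell, and of the airway markers 30% and 5%, beside 7.8% and 6.37% of all genes. Of 19 fibrinogen, complement and acute phase genes 7 rose and 0 fell (median 0.77, 1.52 by total counts, with 7 higher and 0 lower of 12 in the authors' deposited table), and the number that rose was 6 without MS023 replicate 1, 5 without MS023 replicate 2, 5 without untreated replicate 1 and 4 without untreated replicate 2. FGA (chr4:154583126-154590766), the fibrinogen alpha chain, had the largest rise of the called genes that averaged 5 CPM or more. It went from 2.45 and 2.42 to 33.5 and 38.1 CPM (3.87, SE 0.19, edgeR adjusted p = 2.88e-21), a fold of 14.7. FGB (3.42, SE 0.48), FGG (3.87, SE 0.67) and CP, ceruloplasmin (2.11, SE 0.22), rose with it. Of 20 airway and alveolar markers 6 rose and 1 fell (median 0.39, 1.13 by total counts, with 7 higher and 2 lower of 16 in the authors' deposited table and 3 higher and 1 lower by DESeq2), and the number that rose was 4 without MS023 replicate 1, 3 without MS023 replicate 2, 3 without untreated replicate 1 and 4 without untreated replicate 2. MUC5B (chr11:1223066-1262172), a gel-forming airway mucin, went from 15.5 and 13.0 to 103 and 91.5 CPM (2.78, SE 0.18, edgeR adjusted p = 3.55e-11). FOXA2, an endoderm transcription factor, went from 15.6 and 16.7 to 37.4 and 42.7 CPM (1.31, SE 0.13, edgeR adjusted p = 2.01e-10), and KRT7, a keratin of simple epithelia, from 299 and 272 to 164 and 164 CPM (-0.80, SE 0.10, edgeR adjusted p = 1.05e-08). KRT7 lost its call when scaled by total counts (log2 fold change of -0.05).

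Stress and inflammatory lists were mixed. Of the integrated stress response list 28% rose and 12% fell, and of the NF-kB list 20% and 16%, beside 7.8% and 6.37% of all genes. Of 25 genes of the integrated stress response 7 rose and 3 fell (median 0.08, 0.83 by total counts, with 5 higher and 8 lower of 19 in the authors' deposited table), and the number that rose was 5 without MS023 replicate 1, 5 without MS023 replicate 2, 3 without untreated replicate 1 and 6 without untreated replicate 2, and the number that fell 2 without MS023 replicate 1, 2 without MS023 replicate 2, 1 without untreated replicate 1 and 3 without untreated replicate 2. NUPR1, a stress-induced chromatin protein, went from 4.89 and 5.74 to 24.3 and 22.8 CPM (2.14, SE 0.18, edgeR adjusted p = 5.70e-12). CHAC1, which degrades glutathione, went from 6.90 and 8.56 to 18.5 and 20.5 CPM (1.33, SE 0.16, edgeR adjusted p = 2.49e-08) and CEBPB, a bZIP transcription factor, from 35.0 and 32.1 to 65.7 and 74.8 CPM (1.06, SE 0.13, edgeR adjusted p = 1.60e-08). ATF4, the central factor of this response, stood at 98.4 and 108 against 87.6 and 89.6 CPM (-0.22, SE 0.10) and was not called. Of 25 NF-kB feedback and inflammatory genes 5 rose and 4 fell (median -0.08, 0.68 by total counts, with 2 higher and 6 lower of 20 in the authors' deposited table and 3 higher and 3 lower by DESeq2), and the number that rose was 5 without MS023 replicate 1, 3 without MS023 replicate 2, 3 without untreated replicate 1 and 3 without untreated replicate 2, and the number that fell 2 without MS023 replicate 1, 2 without MS023 replicate 2, 3 without untreated replicate 1 and 3 without untreated replicate 2. PTGS2, cyclooxygenase-2, went from 4.45 and 5.14 to 16.6 and 18.0 CPM (1.84, SE 0.20, edgeR adjusted p = 8.14e-10), and the chemokine CCL2 from 6.01 and 6.55 to 2.42 and 2.06 CPM (-1.48, SE 0.25, edgeR adjusted p = 1.98e-05). The NF-kB inhibitor gene NFKBIA stood at 65.8 and 79.4 against 55.2 and 68.9 CPM (-0.23, SE 0.11) and was not called. ATF4 and NFKBIA were called higher when scaled by total counts (0.52 and 0.50). ATF4 was called lower in the authors' deposited table (-0.35).

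Of the NRF2 targets 21.7% rose and 13.0% fell, and of the hypoxia-responsive genes 5% and 30%, beside 7.8% and 6.37% of all genes. Of 25 glucocorticoid-induced genes 6 rose (24%) and 2 fell (8%), the latter near the share of all genes. Their median was 0.07 (0.81 by total counts), with 6 higher and 5 lower of 22 in the authors' deposited table. The labels name no glucocorticoid for these 4 libraries. The number that fell was 1 without MS023 replicate 1, 2 without MS023 replicate 2, 2 without untreated replicate 1 and 1 without untreated replicate 2. PDK4, which inhibits pyruvate dehydrogenase, went from 4.34 and 5.54 to 15.5 and 16.9 CPM (1.71, SE 0.18, edgeR adjusted p = 5.72e-10), and GLUL, glutamine synthetase, from 15.7 and 17.0 to 33.5 and 34.7 CPM (1.06, SE 0.12, edgeR adjusted p = 6.09e-09). FKBP5, a cochaperone of the receptor, stood at 5.56 and 5.24 against 5.90 and 5.91 CPM (0.13, SE 0.31) and was not called. Of 23 NRF2 targets 5 rose and 3 fell (median 0.10, 0.84 by total counts, with 8 higher and 3 lower of 21 in the authors' deposited table and 5 higher and 1 lower by DESeq2), and the number that rose was 5 without MS023 replicate 1, 1 without MS023 replicate 2, 3 without untreated replicate 1 and 1 without untreated replicate 2, and the number that fell 2 without MS023 replicate 1, 2 without MS023 replicate 2, 1 without untreated replicate 1 and 2 without untreated replicate 2. ALDH3A1, an aldehyde dehydrogenase, went from 104 and 116 to 169.8 and 188 CPM (0.70, SE 0.11, edgeR adjusted p = 5.49e-06). Of 20 hypoxia-responsive genes 1 rose and 6 fell (median -0.02, 0.73 by total counts, with 2 higher and 8 lower of 16 in the authors' deposited table), and the number that fell was 4 without MS023 replicate 1, 6 without MS023 replicate 2, 3 without untreated replicate 1 and 5 without untreated replicate 2, and the number that rose 1 without MS023 replicate 1, 1 without MS023 replicate 2, 0 without untreated replicate 1 and 1 without untreated replicate 2. KDM3A, a histone demethylase, went from 31.1 and 27.9 to 16.4 and 15.1 CPM (-0.90, SE 0.14, edgeR adjusted p = 6.50e-06). Of 27 sterol and fatty acid genes 2 rose (7.41%) and 1 fell (3.70%), beside 7.8% and 6.37% of all genes (median -0.01, 0.74 by total counts, with 2 higher and 3 lower of 23 in the authors' deposited table). In that list the number that rose was 2 without MS023 replicate 1, 1 without MS023 replicate 2, 1 without untreated replicate 1 and 2 without untreated replicate 2, and the number that fell 1 without MS023 replicate 1, 1 without MS023 replicate 2, 1 without untreated replicate 1 and 0 without untreated replicate 2. KDM3A lost its call when scaled by total counts (log2 fold change of -0.15). FKBP5 was called higher with that scaling (0.88).

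Replication-dependent histone genes had a median above that of all genes. Of 56 tested 17 rose and 0 fell, and 53 had a log2 fold change above 0 (median 0.31, 1.05 by total counts, with 0 higher and 0 lower of 14 in the authors' deposited table and 8 higher and 0 lower by DESeq2). The number that rose was 18 without MS023 replicate 1, 2 without MS023 replicate 2, 2 without untreated replicate 1 and 13 without untreated replicate 2. H2BC3 went from 8.79 and 10.3 to 17.1 and 18.9 CPM (0.91, SE 0.17, edgeR adjusted p = 7.22e-05) and kept its call when any 1 library was left out. Histone genes are similar in sequence, so counts of single members are uncertain. Of 35 mitochondrially encoded genes 0 rose and 12 fell (median -0.99, -0.23 by total counts), and the number that fell was 6 without MS023 replicate 1, 10 without MS023 replicate 2, 5 without untreated replicate 1 and 9 without untreated replicate 2.

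Considering called genes that averaged 5 CPM or more and whose groups did not overlap, the 12 largest rises were, in order, FGA, OASL, IFIT1, RASGRP2, MUC5B, EBF4, AC136475.3, ZNF467, AXIN2, CDKN1C, FNDC11 and MX1. RASGRP2, which activates the GTPase RAP1, went from 1.78 and 1.41 to 12.9 and 12.0 CPM (2.96, SE 0.29, edgeR adjusted p = 7.32e-11). AXIN2, a feedback inhibitor of Wnt signalling, went from 1.89 and 1.81 to 11.5 and 11.8 CPM (2.65, SE 0.27, edgeR adjusted p = 2.10e-10). The others not yet described were EBF4 (2.71, SE 0.21), AC136475.3 (2.67, SE 0.31), ZNF467 (2.66, SE 0.24) and FNDC11 (2.54, SE 0.26). Among the 12 largest falls were, in order, HNRNPA3P5, DIO2, HCFC1R1, ESF1, HNRNPA1L3, CCN5, MIR3687-2, MIR3687-1, SLFNL1-AS1, ANP32C and IGFL1P1. DIO2 (chr14:80197527-80387757), the deiodinase that activates thyroid hormone, went from 14.5 and 15.8 to 2.34 and 3.35 CPM (-2.41, SE 0.22, edgeR adjusted p = 1.20e-11). HCFC1R1 (chr16:3022620-3024286) went from 113 and 105 to 28.2 and 24.5 CPM (-2.05, SE 0.12, edgeR adjusted p = 6.83e-18) and CCN5, a matricellular protein, from 14.9 and 16.5 to 4.33 and 3.63 CPM (-1.98, SE 0.19, edgeR adjusted p = 7.32e-11). SLFNL1-AS1 (-1.92, SE 0.17) and IGFL1P1 (-1.84, SE 0.21) fell too. MIR3687-1 and MIR3687-2 are near-identical copies, so their values are uncertain. The calls of 4 of these 12 were not stable. ESF1 (-1.99, SE 0.61) lost its call with no filter on low counts (edgeR adjusted p = 0.091) and without MS023 replicate 1, MS023 replicate 2, untreated replicate 1 or untreated replicate 2 (edgeR adjusted p from 0.065 to 0.27), HNRNPA1L3 (-1.98, SE 0.50) without MS023 replicate 1, MS023 replicate 2, untreated replicate 1 or untreated replicate 2 (edgeR adjusted p from 0.062 to 0.13), ANP32C (-1.87, SE 0.51) without MS023 replicate 1, MS023 replicate 2 or untreated replicate 1 (edgeR adjusted p from 0.059 to 0.26) and MIR3687-2 (-1.98, SE 0.41) without MS023 replicate 2 (edgeR adjusted p = 0.051). ESF1, HNRNPA1L3 and ANP32C lost their calls when scaled by total counts (log2 fold changes of -1.23, -1.24 and -1.11).

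**Figure D4:**
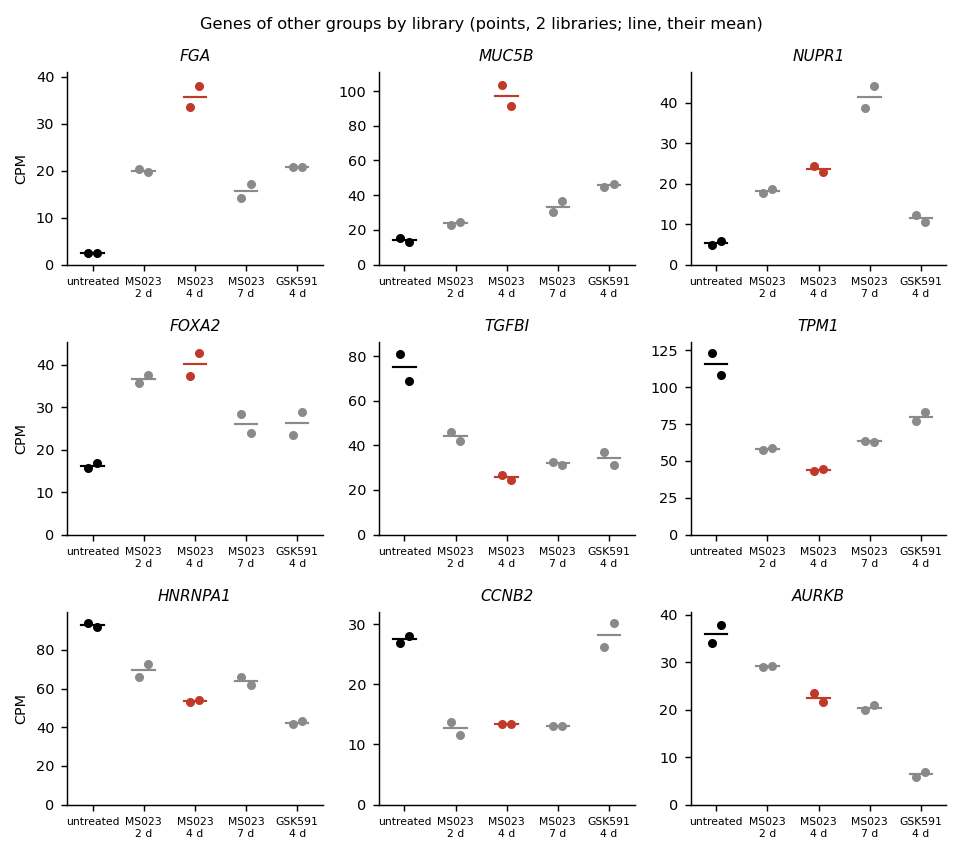
CPM (linear axes from 0, TMM scaling) of 9 genes of other groups in untreated cells, after MS023 for 2, 4 and 7 days and after GSK591 for 4 days. Points are the 2 libraries of a group and lines their mean. FGA, MUC5B, NUPR1 and FOXA2 are higher and the other 5 genes lower at 4 days of MS023 than in untreated cells. When scaled by total counts, AURKB, HNRNPA1 and CCNB2 change by 0.07, -0.05 and -0.29 and lose their calls.

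The 4-day libraries were then contrasted directly with those of 2 days of MS023, in the same fit of all 30 libraries, in which the untreated libraries enter the estimate of spread but not the contrast. Between these times 1126 genes differed (4.91%), 509 higher (2.22%) and 617 lower (2.69%) at 4 days, and the number called was 346 without MS023 replicate 1, 343 without MS023 replicate 2, 278 without 2-day replicate 1 and 403 without 2-day replicate 2. Of the 38 interferon-stimulated effectors 11 were higher and 0 lower at 4 days, with a median of 0.61 (0.70 by total counts). The number that was higher was 7 without MS023 replicate 1, 3 without MS023 replicate 2, 5 without 2-day replicate 1 and 7 without 2-day replicate 2, and 2 by DESeq2. MX1 stood at 5.57 and 4.52 CPM at 2 days and was higher at 4 days (1.73, SE 0.22, edgeR adjusted p = 5.78e-07), whereas OASL already stood at 10.8 and 9.41 CPM (0.34, SE 0.24, edgeR adjusted p = 0.49). MUC5B stood at 23.1 and 24.7 CPM at 2 days (2.03, SE 0.17, edgeR adjusted p = 2.85e-08). IGFL1P1 went down from 19.4 and 17.6 CPM (-2.29, SE 0.21, edgeR adjusted p = 2.43e-10). Of the SRF, Hippo and actin genes 8 were lower and 0 higher at 4 days (median -0.24, -0.17 by total counts, where 0 were lower), and the number lower was 3 without MS023 replicate 1, 6 without MS023 replicate 2, 4 without 2-day replicate 1 and 5 without 2-day replicate 2.

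Between 4 and 7 days 2073 genes differed (9.04%), 981 higher (4.28%) and 1092 lower (4.76%) at 7 days, and the number called was 1043 without 7-day replicate 1, 798 without 7-day replicate 2, 1025 without MS023 replicate 1 and 679 without MS023 replicate 2. Of the interferon-stimulated effectors 0 were higher and 15 lower at 7 days, with a median of -0.73 (-0.46 by total counts, where 6 were lower). The number lower was 9 without 7-day replicate 1, 10 without 7-day replicate 2, 13 without MS023 replicate 1 and 8 without MS023 replicate 2. OASL stood at 0.708 and 0.724 CPM at 7 days (-4.13, SE 0.33, edgeR adjusted p = 2.38e-13) and IFIT1 at 1.42 and 1.59 CPM (-3.36, SE 0.26, edgeR adjusted p = 7.69e-14), beside 1.22 and 0.806 CPM and 1.33 and 1.41 CPM in untreated cells. CCL2 stood at 16.6 and 12.4 CPM (2.69, SE 0.22, edgeR adjusted p = 6.32e-13), above its untreated level. MUC5AC, another gel-forming mucin, went from 25.3 and 30.8 CPM at 4 days to 2.27 and 3.40 CPM (-3.30, SE 0.54, edgeR adjusted p = 0.00111). Of the p53 targets 8 were higher and 0 lower at 7 days (median 0.26, 0.53 by total counts), and the number higher was 5 without 7-day replicate 1, 6 without 7-day replicate 2, 3 without MS023 replicate 1 and 3 without MS023 replicate 2. Of the histone genes 25 were lower and 0 higher (median -0.33, -0.05 by total counts, where 4 were lower and 1 higher), and the number lower was 10 without 7-day replicate 1, 11 without 7-day replicate 2, 22 without MS023 replicate 1 and 6 without MS023 replicate 2.

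Against GSK591 at the same time and dose 1382 genes differed (6.03%), 806 higher (3.52%) and 576 lower (2.51%) with MS023, and the number called was 740 without MS023 replicate 1, 599 without MS023 replicate 2, 594 without GSK591 replicate 1 and 641 without GSK591 replicate 2. Of the interferon-stimulated effectors 17 were higher and 0 lower with MS023, with a median of 0.99 (1.31 by total counts). The number higher was 15 without MS023 replicate 1, 13 without MS023 replicate 2, 12 without GSK591 replicate 1 and 14 without GSK591 replicate 2. MX1 stood at 2.11 and 1.60 CPM with GSK591 (3.16, SE 0.26, edgeR adjusted p = 4.22e-13) and OASL at 1.54 and 1.00 CPM (3.31, SE 0.32, edgeR adjusted p = 4.46e-11). FGA stood at 20.7 and 20.9 CPM with GSK591 (0.78, SE 0.14, edgeR adjusted p = 7.59e-05), between its untreated level and that with MS023. GREM1, an antagonist of bone morphogenetic proteins, went the furthest up beside these interferon genes, at 2.98 and 4.71 CPM with GSK591 and 26.4 and 27.0 CPM with MS023 (2.80, SE 0.20, edgeR adjusted p = 6.61e-15). DNAJB5, a heat-shock cochaperone, stood at 21.0 and 19.3 CPM against 4.97 and 4.34 CPM (-2.11, SE 0.16, edgeR adjusted p = 5.19e-14).

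Part of the cell-cycle genes and most histone genes stood higher with MS023 than with GSK591. Of the replication genes 22 were higher and 0 lower (median 0.76, 1.09 by total counts), and the number higher was 17 without MS023 replicate 1, 18 without MS023 replicate 2, 15 without GSK591 replicate 1 and 16 without GSK591 replicate 2. Of the mitosis genes 18 were higher and 1 lower (median 0.80, 1.12 by total counts), and the number higher was 13 without MS023 replicate 1, 12 without MS023 replicate 2, 12 without GSK591 replicate 1 and 11 without GSK591 replicate 2. AURKB stood at 5.76 and 6.92 CPM with GSK591 (1.83, SE 0.15, edgeR adjusted p = 3.77e-13) and RRM2 at 15.7 and 13.9 CPM (1.00, SE 0.12, edgeR adjusted p = 5.41e-08). CCNB2 went the other way, at 26.2 and 30.2 CPM with GSK591 (-1.08, SE 0.14, edgeR adjusted p = 3.45e-07). Of 56 histone genes 53 were higher and 0 lower with MS023 (median 1.29, 1.62 by total counts), and the number higher was 53 without MS023 replicate 1, 51 without MS023 replicate 2, 50 without GSK591 replicate 1 and 52 without GSK591 replicate 2. H2BC3 stood at 5.67 and 5.52 CPM with GSK591 (1.68, SE 0.18, edgeR adjusted p = 9.32e-10). Of the RGG-motif genes 2 were higher and 0 lower (median 0.02, 0.34 by total counts), with 1 without MS023 replicate 1, 0 without MS023 replicate 2, 0 without GSK591 replicate 1 and 0 without GSK591 replicate 2. Of the p53 targets 1 was higher and 10 lower (median -0.36, -0.03 by total counts, where 1 was higher and 0 lower), and the number lower was 5 without MS023 replicate 1, 4 without MS023 replicate 2, 4 without GSK591 replicate 1 and 6 without GSK591 replicate 2.

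**Figure D5:**
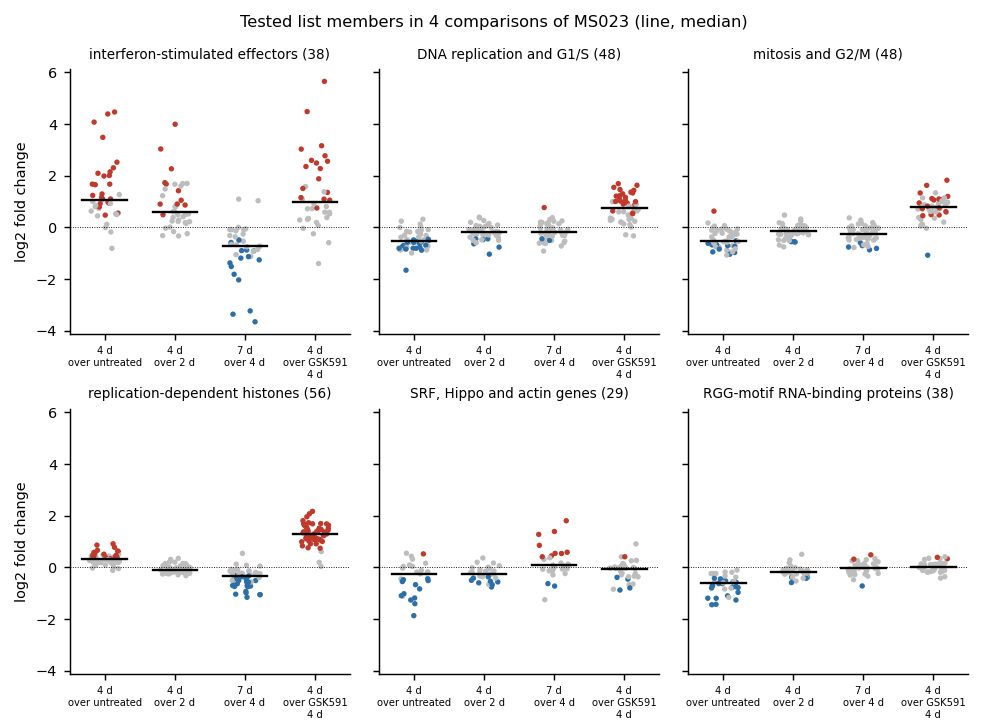
Log2 fold changes (TMM scaling) of the tested members of 6 gene lists in 4 contrasts of the 4-day MS023 libraries, with untreated cells, 2 days, 7 days and GSK591. Red and blue points passed the edgeR test upward and downward, and black lines are medians. Interferon-stimulated effectors have medians of 1.05, 0.61, -0.73 and 0.99, and the medians of the RGG-motif, replication, mitosis and actin genes against untreated cells turn to 0.16, 0.24, 0.22 and 0.50 when scaled by total counts.

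Calls were found in each gene type and length bin given here, but their shares differed. Of protein-coding genes 9.4% rose and 7.45% fell, and of processed pseudogenes 2.07% and 3.27%. Among protein-coding genes the share that rose declined with gene length. Of 14978 protein-coding genes tested 1408 rose and 1116 fell, of 1698 lincRNA genes 112 and 77, of 2241 antisense genes 110 and 85, and of 1591 processed pseudogenes 33 and 52. Reads of an antisense gene and its partner cannot be told apart unless counting used strand, which is not given in the sources used here. Protein-coding genes were split by gene length into 5 bins of 2995 or 2996 genes. The share that rose was 14.4% in the bin of shortest genes, then 10.1%, 8.41% and 7.05%, and 7.01% in the bin of longest genes. The share that fell was between 6.34% and 8.61% in these 5 bins.

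The authors' deposited table of this comparison gave an adjusted p for 17117 genes, of which 1746 were higher and 2112 lower (3858 in all, 22.5%). Of 13448 genes tested in both tables, 2259 were called here, 3454 in the authors' deposited table and 1399 in both, which is 61.9% and 40.5% of the calls. Of the shared calls 1376 had the same direction. The authors' deposited table gives log2 fold changes of 4.13 for FGA, 3.85 for IFIT1, 3.47 for MX1 and -1.87 for TGFBI, beside 3.87, 3.49, 2.53 and -1.55 here. Of 96 genes named with a value in both, 6 differ by more than 1 on the log2 scale, namely FNDC11 (0.06 beside 2.54 here), IRF7 (3.09 beside 0.74 here), MUC5B (4.64 beside 2.78 here), HCFC1R1 (-0.22 beside -2.05 here), CP (3.92 beside 2.11 here) and ESF1 (-0.24 beside -1.99 here) in the authors' deposited table. How reads were counted for that table is not given in the sources used here.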

How the data were processed

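The starting point was the authors' deposited table of PRO-seq read counts per gene in A549 cells, which holds whole, unnormalised counts for 58780 genes in 30 libraries of 15 groups. featureCounts 2.0.1 and the hg38 build are named per the submitters' processing notes, and the counted feature and strand setting are not given in the sources used here. The authors also deposited a table of log2 fold changes with adjusted p-values for this comparison, with a mean normalised signal per gene that they computed over samples. Gene IDs were matched to GENCODE 29. Counts were tested with edgeR 4.0.16 (R 4.3.3) by quasi-likelihood with TMM scaling, after a filter (minimum count 10, minimum total 15), in 1 fit of all 30 libraries with 15 residual degrees of freedom, and p-values were adjusted by Benjamini-Hochberg over the 22919 genes tested at a threshold of 0.05. The script was tested on simulated data in which 200 of 22919 genes were changed. It called 4.48%, 49.3% and 66.7% of changes of 0.5, 1 and 2 on the log2 scale, and 9.09% of its calls were false. Standard errors were taken as the log2 fold change divided by the square root of its F value. CPM are scaled by TMM. The common biological coefficient of variation was 10.6%. Counting intervals and limits cover counting error only.

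The members, the 29 gene lists and the tests were chosen with earlier results of these data known. Genes named are the methyltransferases, the 12 largest rises and 12 largest falls of called genes that averaged 5 CPM or more and whose groups did not overlap, up to 6 called members of a list with the smallest adjusted p, members that define a list, and up to 4 largest rises and falls of a direct contrast. ISG15, IFI27, USP18, CXCL10, E2F1, PCNA, CDK1, CCNB1, CCN2 and FN1 are outside that rule or were chosen after their values were seen. Some genes that the rule names are not reported here. Each contrast was repeated under 8 other settings, among them DESeq2 1.42.0, and without each of its 4 libraries in turn.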

Additional observations from a re-analysis of the deposited data

Results flagged for a closer look

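Libraries differed between times and between inhibitors when the groups were contrasted directly with edgeR. Between 4 and 2 days of MS023 1126 genes differed, between 7 and 4 days 2073 genes, and between MS023 and GSK591 at 4 days 1382 genes. Time in culture and time in MS023 cannot be told apart in the contrasts between times. The 3 contrasts share the 2 libraries of 4 days of MS023, and the untreated libraries enter the estimate of spread of each but not the contrast.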

How the results depend on the processing

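Scaling by total counts alone changed the number of calls to 11274 against untreated cells (99.0% of them higher, against 55.1% under TMM), 80 against 2 days (66.3% higher, against 45.2%) and 1048 between 7 and 4 days (92.1% higher, against 47.3%). Against GSK591 1360 genes were called with that scaling, beside 1382 under TMM, but 94.1% of them were higher, against 58.3%. The number lower with MS023 was 80, against 576 under TMM. DESeq2 called 1869, 482, 939 and 738 genes in the 4 contrasts, in the order untreated, 2 days, 7 days and GSK591. Fits of the 2 compared groups alone called 2539, 3602 and 2402 in the last 3, and the processed-pseudogene covariate 1845 against 2 days. Leaving out 1 library gave 1475 to 1936 calls against untreated cells, 278 to 403 against 2 days, 679 to 1043 between 7 and 4 days and 594 to 740 against GSK591. The cause of these differences was not tested.

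Under total counts the log2 fold change against untreated cells turned positive for 19 of the 114 genes named, namely 0.57 for ACTB, 0.0803 for ACTN4, 0.52 for ATF4, 0.0681 for AURKB, 0.0457 for BIRC5, 0.0705 for CDC20, 0.0130 for ESPL1, 0.18 for HNRNPF, 0.12 for HNRNPH1, 0.71 for IFNAR1, 0.0244 for LAMA3, 0.65 for MAVS, 0.12 for MCM4, 0.18 for MCM7, 0.50 for NFKBIA, 0.40 for PRMT1, 0.0655 for RPL13A, 0.25 for RPS14 and 0.63 for SNRPB. Of 90 named genes called against untreated cells 34 lost their call with that scaling, 13 of them among the 19 and 21 with the same sign, and 18 others were called with it. The falls of HNRNPA1, RBM3, VIM, POLE, RRM2 and ITGA3 are among those lost. FN1 and MUC5AC were called higher in the fit of the compared groups alone and with the pseudogene covariate, PCNA and PRMT3 lower in the former, and ADAR and EIF2AK2 higher in the latter. No named gene changed sign under the other settings run.

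With the replicate number as a block, 3355, 1209, 2167 and 1449 genes were called in the 4 contrasts, and no named gene changed its call. Deviations of same-numbered libraries correlated at 0.0221, 0.0507, 0.0994 and 0.0433. Counting error can keep such values low, so they cannot show whether same-numbered libraries shared a culture or batch. The labels name no link beyond the number, and the libraries were not treated as pairs. Genes with few counts, the interferon ligands among them, are limited by depth.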
